A study of Mus musculus with 15 samples.

Results

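The 10 genes described here encode the core machinery that makes and uses microRNAs and short interfering RNAs: the microprocessor genes Drosha and Dgcr8, the exporter gene Xpo5, the dicing genes Dicer1, Tarbp2 and Prkra, and the Argonaute genes Ago1, Ago2, Ago3 and Ago4. They were chosen by name and matched by symbol to Ensembl gene IDs, and all 10 were found among the 28785 gene IDs with a count. The libraries come from single mouse oocytes profiled with MATQ-seq, a method that primes and amplifies total RNA from 1 cell. The germinal vesicle (GV) group holds 9 fully grown oocytes arrested in meiotic prophase, and the MII group holds 6 mature eggs halted at the second metaphase. All came from females of around 6 to 8 weeks given 7 IU of pregnant mare serum gonadotropin. GV oocytes were taken 44 h after it, whereas MII donors received 7 IU of human chorionic gonadotropin about 48 h after it. MII oocytes were recovered after another 20 h from cumulus complexes in the fallopian tubes, with 300 IU/mL hyaluronidase to remove the cumulus cells. No genotype, strain or mouse is named in the labels, so how many mice each stage comes from, and whether oocytes share a mouse, is not known.

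In the canonical pathway the microprocessor cuts hairpins out of primary transcripts in the nucleus, exportin 5 carries them to the cytoplasm, Dicer cuts them to their mature length, and an Argonaute protein binds 1 strand and uses it to find target RNAs. Dicer also cuts long double-stranded RNA into short interfering RNAs without help from the microprocessor. Mouse oocytes are known for that second route: they make abundant endogenous short interfering RNAs, use a shorter oocyte form of Dicer that starts at a retrotransposon within the gene, and have weak microRNA activity. The counts are per gene, so the forms of Dicer cannot be told apart in them.

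GV libraries held 3687610 to 7103063 counts and MII libraries 808641 to 2348281, with 15062 to 18853 and 9617 to 13873 genes detected. Between 11 and 12 of 12 oocyte marker genes had a count in every oocyte. GV1 to GV6, GV7 to GV9 and the MII files carry different column headers, and a difference of stage cannot be told apart from one of file set. The unnamed feature ENSMUSG00000119584 took 15.7% to 61.2% of the MII counts, most in MII5 and MII6 (52.6% and 61.2%), 3.43% to 11.2% in GV7 to GV9 and 0% in GV1 to GV6. A larger share of this feature leaves less for every other gene in CPM (counts divided by the library's total and put on a common scale). In CPM the log2 ratio MII/GV of the median measured gene was −0.98, and it was −0.31 with totals that leave out the feature. Ratios below are therefore log2 MII/GV of the summed counts relative to that median gene, where a gene counts as measured if the stage with more of it had at least 5 CPM. Each ratio is followed by ± and its spread, which combines the SDs over the 9 GV and over the 6 MII oocytes. Each stage was treated as 1 sample, so no test between the stages was made and no gene is called changed.

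Of the 10 genes 9 were measured. Relative to the median gene, 2 of these 9 were at least 2-fold lower in MII (Dgcr8 and Ago1) and 2 at least 2-fold higher (Tarbp2 and Ago2). Of all 10090 measured genes, 15.5% were lower and 12.1% higher in MII by that much. Of the other 6 genes, 5 were measured and lay within 2-fold. Prkra, with 0 counts in MII, did not reach 5 CPM in either stage and was left out of these counts. The relative levels of the stages overlapped for all 10 genes, while 0.684% of measured genes had MII oocytes wholly below GV oocytes and 1.61% wholly above. For Prkra this overlap carries no information, since both stages had oocytes with 0 counts. At 0 counts the relative level follows the oocyte's median gene alone. The median ratio of the 10 genes was −0.05, with the median measured gene at 0 by construction. The direction of the small ratios depends on the scaling: with all counts in the totals Drosha stood at −0.14 and Dicer1 at −0.53, both lower in MII.

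**Figure D1:**
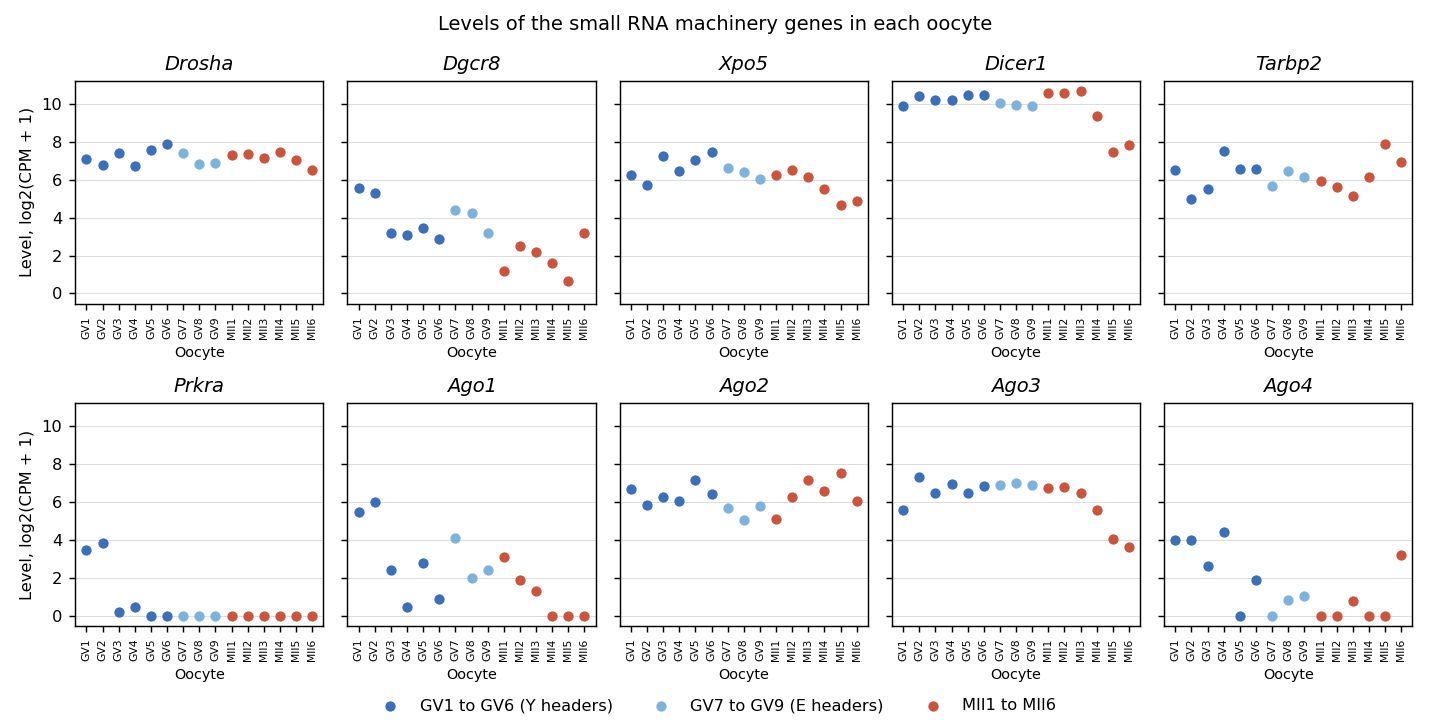
Level of each gene in every oocyte as log2(CPM + 1), with GV1 to GV6 in dark blue, GV7 to GV9 in light blue and the 6 MII oocytes in red. Dicer1 is the highest in most oocytes and lowest in MII5 and MII6, and Prkra stands above 1 CPM in GV1 and GV2 alone.

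Compared per length of annotated exon, Dicer1 was by far the most abundant of the 10 transcripts in GV oocytes, at 70.1 ± 11.9 CPM per kb (SD, n = 9), at percentile 94.1 of the measured protein-coding genes. Its lowest GV oocyte (56.1 CPM per kb) stood above the highest GV value of Drosha (40.6 CPM per kb). Drosha followed at 25.4 ± 7.63 CPM per kb, Tarbp2 at 18.1 ± 9.62 and Xpo5 at 15.0 ± 6.14. Drosha exceeded Xpo5 per kb in 9 of 9 GV oocytes and Tarbp2 in 8, whereas Tarbp2 exceeded Xpo5 in 5. Among Drosha, Tarbp2 and Xpo5, only Tarbp2 and Xpo5 thus had no steady order. The exon length merges all annotated transcripts of a gene (14 for Tarbp2, over 4549 bp), and the forms present in oocytes may be shorter. Orders and folds between genes per kb depend on this length, and other lengths were not tried. Ago3 at 6.61 ± 1.93 and Ago2 at 5.25 ± 2.32 CPM per kb formed a lower pair whose difference lay within its spread. Their order was not steady either, with Ago3 above Ago2 in 6 of 9 GV oocytes. The rest of the genes were near the bottom of the range, with Dgcr8 at 2.37 ± 1.93, Ago1 at 1.93 ± 2.76, Prkra at 1.32 ± 2.58 and Ago4 at 0.952 ± 1.13 CPM per kb, and their SDs are as large as the gaps between them. Ago1, Prkra and Ago4 stood at percentiles 15.3, 8.00 and 4.87. In MII oocytes Dicer1 (57.5 ± 41.0 CPM per kb, SD, n = 6), Drosha (24.3 ± 5.08) and Tarbp2 (21.1 ± 16.8) were again the top of the list, but the spread of Dicer1 now reached across Drosha and Tarbp2. Ago2 (7.08 ± 3.89 CPM per kb) stood next to Xpo5 (8.16 ± 4.0) and above Ago3 (3.80 ± 2.68) in MII, without separation beyond the spread. Dgcr8 (0.438 ± 0.357), Ago1 (0.236 ± 0.357) and Ago4 (0.212 ± 0.469 CPM per kb) were the lowest genes with a count.

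Drosha (ENSMUSG00000022191), the nuclease of the microprocessor, was read at a steady level. It stood at 105 to 241 CPM in GV oocytes (median 139) and at 158, 163, 143, 177, 133 and 91.1 CPM in MII1 to MII6. The MII values lay inside the GV range except that of MII6, just below it. In CPM the stages thus differed little for Drosha while the median gene was lower in MII, and the ratio relative to the median gene was 0.84 ± 0.62, larger than its spread, as were those of Ago1 and Ago2 among the measured genes. Relative to the oocyte's own median gene all 6 MII oocytes stood above the GV median and 3 above the highest GV oocyte. The ratio was 0.79 with GV1 to GV6 as the only GV oocytes and 0.90 with GV7 to GV9.

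Dgcr8 (ENSMUSG00000022718), the RNA-binding partner that holds the hairpin for Drosha, was scarce in both stages and lower in MII. GV oocytes ran from 6.39 to 46.8 CPM (median 10.1), and MII1 to MII6 had 1.24, 4.60, 3.64, 2.07, 0.607 and 8.09 CPM, from 37 counts in all against 762 in GV. Relative to their own median gene 4 MII oocytes lay below every GV oocyte, and MII2 and MII6 lay inside the GV range. The ratio was −1.17 ± 1.40, so the difference is smaller than the spread, and it was −0.87 without GV1, −0.99 without GV2, −0.54 without both and −1.95 without MII6. The microprocessor pair was uneven: Drosha exceeded Dgcr8 per kb by 3.72-fold to 48.9-fold in GV oocytes (median 18.5) and by 14.6-fold to 284-fold in MII, with MII6 the lowest. Counting error is large in that ratio, since MII1 and MII5 each had 1 count of Dgcr8. Exons of Dgcr8 overlap those of Trmt2a on the opposite strand over 825 bp (10.7% of its exon length), and without a stated strand the reads of the overlap cannot be assigned.

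The Dgcr8 transcript itself carries 2 microRNA hairpins, and the microprocessor is known to cut hairpins in this transcript, which lowers it. Their mature sequences are shown because they mark the places in Dgcr8 that its own enzyme recognises. The hairpin of miR-1306 lies in a coding exon and that of miR-3618 in an exon outside the coding part, both on the minus strand (GRCm38.p6, RefSeq). The seed, bases 2 to 8, is in capitals, and the 4 arms have 4 different seeds.
miR-1306-5p at chr16:18284288-18284310: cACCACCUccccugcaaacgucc
miR-1306-3p at chr16:18284248-18284268: aCGUUGGCucugguggugaug
miR-3618-5p at chr16:18284602-18284623: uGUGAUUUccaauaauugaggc
miR-3618-3p at chr16:18284562-18284583: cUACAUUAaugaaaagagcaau
Neither hairpin had a count under its own gene ID in any of the 15 oocytes. The libraries were built from cDNA sheared to 300 bp, and the authors' counts of a host exon could take in reads of the hairpin, so this count says nothing of the mature microRNAs.

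Xpo5 (ENSMUSG00000067150), the exportin that carries hairpins out of the nucleus, kept its place relative to other genes. It was read at 53.0 to 177 CPM in GV oocytes (median 87.8) and at 76.7, 91.4, 69.9, 45.6, 24.3 and 28.1 CPM in MII1 to MII6. The last 3 MII oocytes lay below the GV range in CPM. Relative to their own median gene all 6 MII oocytes lay within the GV range, and the ratio was −0.10 ± 0.74. With all counts in the totals it was −1.08, past 2-fold.

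Dicer1 (ENSMUSG00000041415), which encodes the nuclease that cuts both microRNA hairpins and long double-stranded RNA, took 62.2% to 71.7% of all counts of the 10 genes in every GV oocyte. Its GV levels were 940 to 1445 CPM (median 1193). The MII oocytes split: MII1, MII2 and MII3 had 1547, 1514 and 1648 CPM, all above the GV range, whereas MII4, MII5 and MII6 had 665, 179 and 228 CPM, all below it. The split remained relative to each oocyte's median gene, where MII1 to MII3 (6.24 to 6.40) stood above and MII5 and MII6 (4.16 and 4.46) below the GV range of 4.78 to 5.70 on the log2 scale, with MII4 (5.47) inside it. Summed over the stage the ratio was 0.45 ± 1.06, which averages oocytes that differ among themselves by more than the stages do. Leaving out MII4, MII5 and MII6, a choice made after seeing the data, gave 0.98. The share of Dicer1 in the counts of the 10 genes was 77.8%, 75.3% and 77.2% in MII1 to MII3 and 60.5%, 23.1% and 40.4% in MII4 to MII6. MII4, MII5 and MII6 had 34.0%, 52.6% and 61.2% of their counts in the unnamed feature, against 33.7%, 16% and 15.7% in MII1 to MII3. The part of this feature in the split was not tested.

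Tarbp2 (ENSMUSG00000023051), which encodes the double-stranded RNA-binding partner TRBP of Dicer, showed the opposite split. GV oocytes had 31.0 to 181 CPM (median 86.1), and MII1 to MII6 had 60.6, 48.6, 34.9, 69.9, 240 and 123 CPM. MII5 and MII6, the lowest oocytes for Dicer1, were the highest MII oocytes for Tarbp2, and relative to their own median gene only these 2 exceeded every GV oocyte. The ratio of 1.29 ± 1.55 was smaller than its spread and rests on them: it was 0.73 without MII5, 0.08 without both and −0.27 with MII4 left out as well. Dicer1 exceeded Tarbp2 per kb in all 9 GV oocytes (by 1.79-fold to 12.0-fold) and in MII1 to MII4, by 6.93, 8.46, 12.8 and 2.58-fold. In MII5 and MII6 the ratio Dicer1/Tarbp2 per kb was 0.203 and 0.503. Of the 50-base stretches of Tarbp2 transcripts, 14.3% also occur in the predicted gene Gm18584, which had 197 counts in GV and 12 in MII, so some reads may be shared between them.

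Prkra (ENSMUSG00000002731), which encodes PACT, the other double-stranded RNA-binding partner of Dicer, was nearly confined to 2 libraries. GV1 and GV2 had 10.2 and 13.4 CPM (49 and 57 counts), GV3 and GV4 had 0.141 and 0.379 CPM, and the other 5 GV and all 6 MII oocytes had 0 counts. GV1 and GV2 thus held 97.2% of its 109 GV counts. Against the limit of 3 counts that 0 counts over the MII stage allow (0.311 CPM), Prkra was at least 7.97-fold lower in MII in CPM. Relative to the median gene that limit is a log2 ratio of −2.01, and both values cover counting error only. Without GV1 and GV2, GV3 to GV9 had 3 counts in all, and no fold is given. In 1 random thinning of every oocyte to 808641 counts, Prkra had a count in 4 of 9 GV oocytes and 0 of 6 MII oocytes. GV3 and GV4 had just 1 and 2 counts before thinning, so another draw could leave them with 0.

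GV1 and GV2 also had counts for more markers of the follicle cells that surround the oocyte than other GV oocytes, though not higher levels of every marker. They had counts for the most genes of any kind as well, 18853 and 17794 against 15062 to 17174 in GV3 to GV9. Of 16 cumulus and granulosa markers, GV1 and GV2 had counts for 13 and 12, other GV oocytes for 6 to 10 and MII oocytes for 1 to 5. Their summed level was 244 CPM in GV1, 69.6 CPM in GV2, 14.4 to 119 CPM in GV3 to GV9 and 3.71 to 24.3 CPM in MII. Foxl2, a granulosa transcription factor, had 18.7 and 20.4 CPM in GV1 and GV2, at most 1.01 CPM in the other GV oocytes and 0 counts in MII. Inha, the inhibin alpha subunit made by granulosa cells, had 145 CPM in GV1 and 0 counts in GV2, against 0 to 68.3 CPM in GV3 to GV9. Amh, made by granulosa cells, was at 17.9 and 1.41 CPM in GV1 and GV2 and highest in GV6 (23.7 CPM). Inhba had 9.57 and 12.4 CPM in GV1 and GV2, 12.7 CPM in GV4 and at most 1.35 CPM in the other GV oocytes. Kitl had 8.12 and 16.2 CPM in GV1 and GV2, at most 4.90 CPM in GV3 to GV9 and at most 3.64 CPM in MII. Inha, Foxl2, Inhba and Amh were all at 0 counts in MII. Theca and stroma markers summed to 19.1 and 27.2 CPM in GV1 and GV2, at most 4.78 CPM in other GV oocytes and 27.9 CPM in MII5. Oviduct markers other than Cdh1 summed to 9.57 and 11.3 CPM in GV1 and GV2 and to at most 2.71 CPM in other GV oocytes. These 2 oocytes held 97.2% of the GV counts of Prkra, 74.4% of those of Ago1, 51.0% of Dgcr8 and 45.5% of Ago4, against 12.5% to 21.5% for the other 6 genes. The part of follicle cell RNA in those 4 genes was not tested.

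Ago1 (ENSMUSG00000041530), which encodes an Argonaute that binds microRNAs and silences without cutting, had the lowest ratio of the 9 measured genes of the machinery. In GV oocytes it was at 43.7 and 63.1 CPM in GV1 and GV2 and at 0.379 to 16 CPM in the other 7. In MII it had 7.42, 2.63 and 1.46 CPM in MII1 to MII3 and 0 counts in MII4 to MII6. The ratio was −2.52 ± 2.18 from 644 and 12 counts, or 5.72-fold lower relative to the median gene. In CPM, where the median gene was also lower in MII, the difference was 11.8-fold. The 95% interval of that CPM difference, 6.69 to 22.9, covers counting error only. The ratio was −1.90 without GV2, −3.30 without MII1 and −0.95 without GV1 and GV2, the last within 2-fold.

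Ago2 (ENSMUSG00000036698), which encodes the Argonaute whose slicer activity carries out RNA interference, was relatively higher in MII. GV oocytes had 31.9 to 141 CPM (median 65.2) and MII1 to MII6 had 33.4, 76.2, 143, 94.3, 183 and 66.4 CPM. The ratio was 1.38 ± 1.24, and 4 of 6 MII oocytes exceeded every GV oocyte relative to their own median gene, with MII1 and MII2 inside the GV range. It was 1.18 with GV1 to GV6 alone, 1.99 with GV7 to GV9 alone, 1.02 without MII5 and 0.95 without MII5 and MII6, the last within 2-fold. In CPM with all counts in the totals the difference was 0.39 on the log2 scale.

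Ago3 (ENSMUSG00000028842), another microRNA-binding Argonaute, was at 46.6 to 161 CPM in GV oocytes (median 119). MII1 to MII3 had 105, 110 and 89.5 CPM, inside the GV range, and MII4 to MII6 had 46.1, 15.8 and 11.5 CPM, below it. Relative to their own median gene only MII6 lay below the GV range, and the ratio was −0.01 ± 1.13. The oocytes low in Ago3 are the ones low in Dicer1.

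Ago4 (ENSMUSG00000042500), the least abundant Argonaute, could hardly be followed. It had counts in 7 of 9 GV oocytes, from 0 to 20.1 CPM (median 2.68), and in MII3 and MII6 alone, at 0.728 and 8.09 CPM. MII6 held 19 of its 20 MII counts. The ratio of −0.69 ± 2.26 became −4.22 without MII6, and it was −1.10 with GV1 to GV6 alone and 2.59 with GV7 to GV9 alone, which had 7 counts in all.

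**Figure D2:**
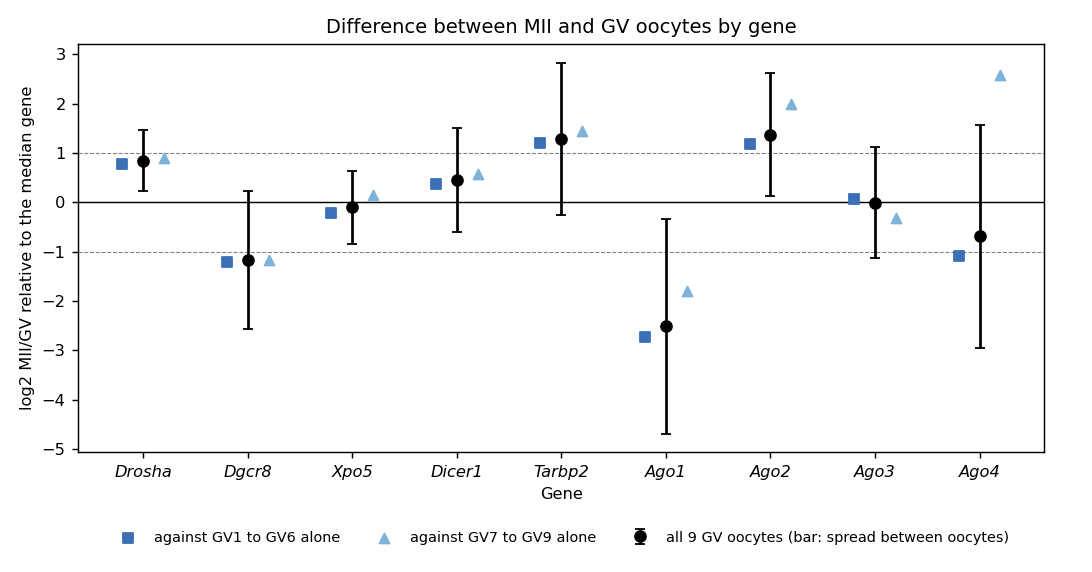
Log2 MII/GV of the summed counts relative to the median measured gene for the 9 genes with a count in MII. Black points use all 9 GV oocytes with bars for the spread between oocytes, and squares and triangles use GV1 to GV6 or GV7 to GV9 alone. The dashed lines mark 2-fold. The triangle of Ago4 at 2.59 is the only one far from its black point.

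Within an oocyte the make-up of the Argonautes can be read without any scaling between libraries. Per kb, Ago2 made up 17.0% to 62.8% of the Argonaute transcripts in GV oocytes (median 33.1%) and Ago3 16% to 73.3% (median 49.6%). In MII1 to MII6 the share of Ago2 was 24.7%, 43.9%, 64.1%, 70.7%, 93.2% and 71.8%, and that of Ago3 was 65.8%, 53.5%, 34.1%, 29.3%, 6.79% and 10.5%. The ratio Ago2/Ago3 per kb had a median of 0.623 in GV (0.301 to 2.59) and of 2.15 in MII (0.375 to 13.7), so the ranges overlap, with MII5 and MII6 (13.7 and 6.82) above every GV oocyte. GV7 to GV9 lay between 0.301 and 0.543 and GV1 to GV6 between 0.414 and 2.59, so the file sets of 1 stage also differed in this ratio. Behind these shares are 605 to 1385 Argonaute counts in a GV oocyte and 118 to 328 in an MII oocyte. Ago1 and Ago4 together took a large share in GV1 and GV2, where Ago1 alone made up 30.6% and 32.9%. Argonautes share few stretches of sequence: 1.48% of the 50-base stretches of Ago1 occur in Ago3, and no stretch of Ago3 occurs in Ago2. Ago3 had 4686 counts in GV and 517 in MII against 644 and 12 of Ago1. Shared reads could thus still matter for the low counts of Ago1.

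**Figure D3:**
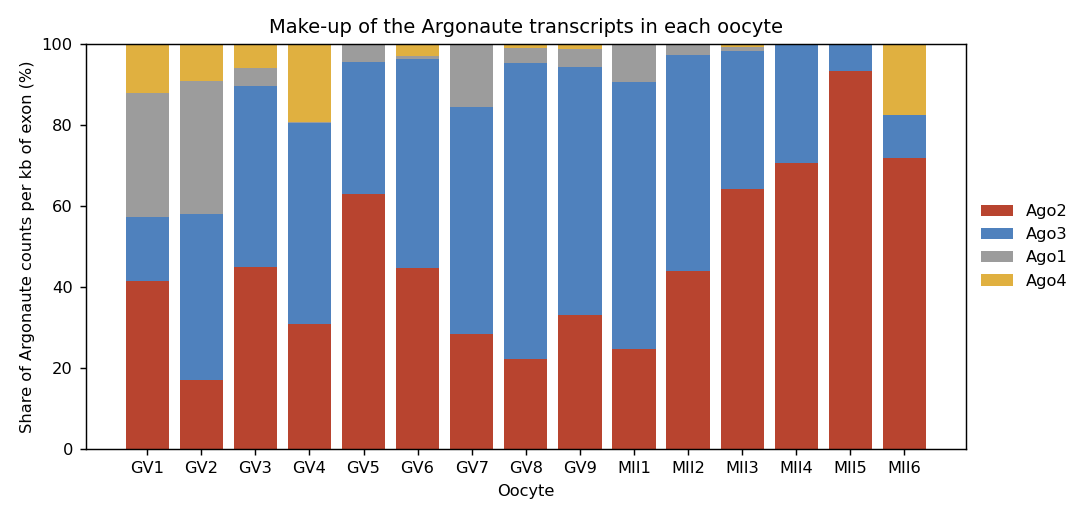
Share of each Argonaute gene in the Argonaute counts per kb of exon, 1 bar per oocyte, summing to 100%. Ago2 (red) and Ago3 (blue) make up most of every bar, and the red part is largest in MII5 (93.2%).

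The 2 sets of GV files were compared as a measure of how far libraries of 1 stage stand apart. Of the 9 genes measured in this comparison, 8 lay within 2-fold between GV7 to GV9 and GV1 to GV6 relative to the median gene, where 20.2% of 10764 measured genes were lower by 2-fold or more in GV7 to GV9 and 18.1% higher by as much. Ago4 was lower in GV7 to GV9 by a log2 ratio of −3.62, from 7 counts against 290. Ago1 (−0.87) and Ago2 (−0.74) came next, and Ago3 stood at 0.46. The ratios of Drosha, Dgcr8, Xpo5, Dicer1 and Tarbp2 between the sets lay within 0.31 of 0.

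The genes that work with this machinery were set beside it as a list of 30 microRNA cofactors, of which 28 were measured. Of these, 2 (7.14%) were at least 2-fold lower in MII, 5 (17.9%) at least 2-fold higher and 21 within 2-fold, with a median ratio of 0.09, against 15.5% and 12.1% of all measured genes. The GW182 genes Tnrc6a, Tnrc6b and Tnrc6c, whose proteins link Argonautes to the deadenylation machinery, stood at −0.22, −0.08 and 0.30. The most abundant cofactor per kb was Hsp90ab1, a chaperone that helps load Argonautes, at 315 CPM per kb in GV and a ratio of −0.15 ± 0.57. Tut4, a uridylyltransferase that tags microRNA precursors, was the lowest at −4.13 ± 1.33, from 236 counts in GV and 1 in MII. Its GV level of 5.38 CPM was just above the filter of 5 CPM, and GV oocytes ran from 0 to 18.1 CPM. In CPM, where the median gene was also lower in MII, the difference was 51.8-fold. Its interval of 9.20 to 2054 covers counting error only. Tsnax, whose protein with translin forms the C3PO nuclease that removes the cut passenger strand in RNA interference, was the highest at 1.74 ± 0.83, with 16.3 to 56.1 CPM in GV oocytes and 28.5 to 160 CPM in MII oocytes. Its partner Tsn stood at −0.07 ± 1.12.

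The other cofactors past 2-fold are named after their values were seen. Snd1, a nuclease of the silencing complex, stood at 1.39 ± 0.93, Lin28a, which blocks let-7 processing, at 1.29 ± 0.72, and Ddx17, a microprocessor helicase, at 1.21 ± 0.71. Eri1, a nuclease that degrades short interfering RNAs, stood at 1.20 ± 1.59, within its spread. Mov10, an RNA helicase bound to Argonautes, stood at −1.19 ± 2.14, but at −1.60 with GV1 to GV6 alone and 2.62 with GV7 to GV9 alone.

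The piRNA pathway, a Dicer-independent branch that protects germ cells from transposons, was taken as a list of 17 genes. Of its 14 measured genes 2 (14.3%) were at least 2-fold lower in MII, 0 at least 2-fold higher and 12 within 2-fold, with a median ratio of −0.12. Ddx4, the germ cell helicase Vasa, was the lowest at −1.53 ± 1.14, with 8.01 to 31.1 CPM in GV oocytes and 0 to 8.54 CPM in MII oocytes. Gtsf1, a zinc finger partner of Piwi proteins and the most abundant of the list per kb (68.1 CPM per kb in GV), stood at −1.19 ± 1.66. Henmt1, the methylase that protects piRNA ends, was the highest at 0.71 ± 1.32, but 2.51 against GV7 to GV9 alone. Nothing particular to either list is read from these counts.

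**Figure D4:**
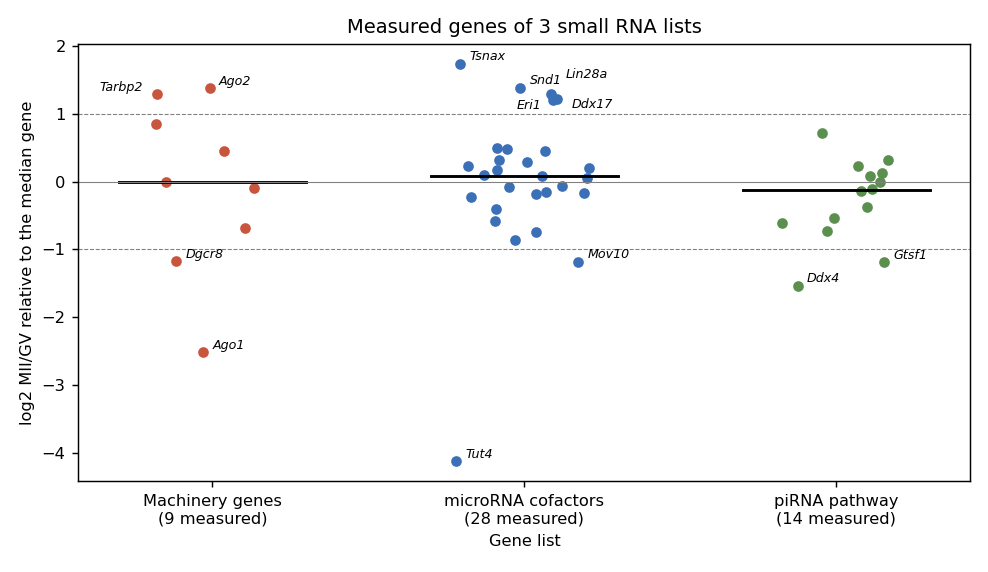
Log2 MII/GV relative to the median measured gene for the measured genes of the 10 machinery genes, the microRNA cofactors and the piRNA pathway, 1 point per gene with names past 2-fold. Black lines mark the median of the measured genes plotted, the dashed lines mark 2-fold, and sideways position has no meaning.

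The genes whose levels varied most like those of Dicer1, Ago2 and Dgcr8 were sought among 5849 protein-coding genes, by Pearson r of log2(CPM + 1) relative to the oocyte's median gene over 15 oocytes, after the mean of each file set was subtracted. Genes of 1 oocyte share its library and depth, so r is a description with no p. For Dicer1 they were Lpin2 (0.98), Golga4 (0.98) and Dnajc13 (0.98). For Ago2 they were Slc9a3r1 (0.92), Slc35f6 (0.87) and G6pdx (0.87). For Dgcr8, with few counts, they were Anks1b (0.81), Phc3 (0.80) and Camkmt (0.80). Among the 45 pairs of the 10 genes r ran from −0.85 (Dicer1 with Tarbp2) to 0.89 (Dicer1 with Ago3), with a median of −0.10. Prkra with Dgcr8 (0.75) and with Ago1 (0.74) came next, pairs in which GV1 and GV2 hold most of the GV counts of each gene.

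CG dinucleotides were counted in the promoters of the genes. RefSeq promoters (GRCm38.p6, 250 bases before the start) were matched for 9 of the 10 genes, with 10 promoters in all. Each held 15 to 46 CG dinucleotides, which read the same on both strands, against a median of 6 over 32851 promoters. Ago1, Ago3 and Ago4 lie side by side on chromosome 4, and their promoters hold 26 to 46 CG. The promoters of Dicer1, the most abundant gene, and Prkra, the one absent from most oocytes, are shown 5′ to 3′ on the minus strand with CG in capitals.
Dicer1 at chr12:104751953-104752202: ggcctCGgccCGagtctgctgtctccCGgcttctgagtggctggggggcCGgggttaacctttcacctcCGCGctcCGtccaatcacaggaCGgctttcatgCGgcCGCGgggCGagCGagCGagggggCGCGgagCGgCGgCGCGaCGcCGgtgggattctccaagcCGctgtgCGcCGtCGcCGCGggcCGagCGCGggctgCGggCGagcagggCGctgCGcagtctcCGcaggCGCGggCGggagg
Prkra at chr2:76648028-76648277: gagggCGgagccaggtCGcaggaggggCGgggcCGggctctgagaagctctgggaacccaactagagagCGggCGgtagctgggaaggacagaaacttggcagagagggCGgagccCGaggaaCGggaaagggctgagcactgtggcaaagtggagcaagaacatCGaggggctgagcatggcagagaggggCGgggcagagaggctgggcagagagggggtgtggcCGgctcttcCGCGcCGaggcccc
The Dicer1 sequence holds 39 CG, a number reached by 1.56% of promoters, and that of Prkra holds 15, reached by 27.3% of promoters. The 18 CG of Tarbp2 are reached by 21.7% of promoters, so a number above the median is not particular to these genes. The Dicer1 start shown is the RefSeq start, not that of the oocyte form of Dicer. Nothing on the levels is read from these counts.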

How the data were processed

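MATQ-seq libraries of 9 GV and 6 MII single mouse oocytes were analysed. Each oocyte has 1 deposited file of raw counts, whole numbers for each Ensembl gene ID, per the file headers. Build GRCm39, STAR 2.7.10a and cutadapt 4.0 are named in the submitters' processing notes. The counting step, its annotation and any use of strand or molecular identifiers were not given in the sources used here, so reads of overlapping or near-identical genes may be shared. Genes a file does not list have 0 counts. Gene names, exon lengths and overlaps were read from GENCODE M21, which is on the older build GRCm38, and 28402 of 28785 gene IDs (98.7%) had a symbol. The exon length of a gene merges the exons of all its transcripts. Sequences came from RefSeq tables of GRCm38.p6.

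The labels' stage set the groups. With no mouse named for any cell, a stage is 1 sample, and no p-value was made. Counts were summed per stage and 0.5 was added before the log2 ratio. Measured genes reached 5 CPM in at least 1 stage, and a difference of at least 2-fold relative to the median measured gene was counted. For the spread, levels were log2(CPM + 1) with the value of the median measured gene of that oocyte subtracted. Sums and their ratios have exact 95% intervals. Since PCR copies are not independent molecules, these intervals and the floor of 3 counts cover counting error only. In 51 pairs of oocytes of 1 stage the lowest chi-square per degree of freedom was 7.26, so none agreed within sampling noise. The ratio calculation was tested on simulated data.

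The 10 genes, the lists and the alternatives were chosen with earlier results of these data known. All 10 genes are named. Of each list, the most abundant gene per kb and the measured genes with the lowest and highest ratio are named, and for Dicer1, Ago2 and Dgcr8 the 3 protein-coding genes with the highest r among those that reached 20 CPM in a stage. Marker lists covered the oocyte, cumulus and granulosa cells, theca and stroma, blood and immune cells and oviduct epithelium. Blood and immune markers summed to at most 11.5 CPM in any oocyte, and oviduct markers other than Cdh1, which oocytes also express, to at most 11.3 CPM. Alternatives were other scalings (totals with all counts or without the unnamed feature, TMM of edgeR 4.0.16, median of ratios of DESeq2 1.42.0, both in R 4.3.3), means or medians of CPM over oocytes, thinning, 1 in place of 0.5 added, other filters, 1 GV file set at a time and leaving out oocytes. Other tools were Python 3.11.15, numpy 2.4.6, pandas 2.3.3, scipy 1.17.1 and matplotlib 3.10.9.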

Additional observations from a re-analysis of the deposited data

Results flagged for a closer look

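In 19 groups of 1 gene and 1 stage, the oocyte with the highest or lowest level was set against the others, and in 3 it stood apart by the 95% limit of Dixon's gap test. Chance alone flags about 1 in 20 such groups. Tarbp2 had 181 CPM in GV4, above the other 8 GV oocytes. Ago1 had 7.42 CPM in MII1, above the other 5 MII oocytes, from 6 counts in the library with the smallest total. MII2 had 4 counts of Ago1, so the 2 oocytes are close in counts. Ago4 had 8.09 CPM in MII6, above the other 5, from 19 of the 20 MII counts of the gene.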

How the results depend on the processing

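Of 297 ratios of single genes under 30 alternatives, 289 moved by less than the spread between oocytes, 7 moved by more (5 of them Ago4, with Drosha and Xpo5 under totals of all counts) and 1 turned from past 2-fold to the other direction (Tarbp2, −0.27 leaving out MII4, MII5 and MII6). In all 25 ratios changed sign, 13 of Ago3 and 8 of Xpo5, both near 0 as reported, 1 each of Drosha and Dicer1 (with totals of all counts), 1 of Ago4 (2.59 against GV7 to GV9 alone) and that of Tarbp2. The count of genes at least 2-fold lower in MII, 2 as reported, was 4 with totals of all counts, 1 with the median CPM over oocytes, 0 with at least 20 CPM required and 0 leaving out GV1 and GV2. Leaving out 1 oocyte gave 1 to 3, with 1 when GV1 or GV2 was left out. The count at least 2-fold higher, 2 as reported, was 1 with totals that leave out the unnamed feature, 0 with totals of all counts, 1 with the median CPM, 0 leaving out MII5 and MII6 and 0 leaving out MII4, MII5 and MII6. Leaving out 1 oocyte gave 1 to 2, with 1 when MII5 was left out. The median ratio, −0.05 as reported, was −1.04 with totals of all counts and 0.57 against GV7 to GV9 alone, and −0.21 to 0.05 leaving out 1 oocyte. Fewer genes passed where 20 CPM was required, and the cause of the other shifts was not tested. Prkra gave no ratio with the median CPM, where both medians were 0, nor against GV7 to GV9 alone or leaving out GV1 and GV2, where both stages had at most 3 counts. No paired analysis was possible because the result comes from no test, and the replicate numbers name oocytes of different stages that nothing in the labels pairs. Depth limits Dgcr8, Ago1, Ago4 and Prkra, with 0 to 37 counts over the 6 MII oocytes.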
